A study of Mus musculus with 2 samples.

Results

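The miR-219 and miR-338 loci are the microRNA genes best known from oligodendrocytes, the cells that wrap axons in myelin. They were read here in the embryonic midbrain, the middle vesicle of the developing brain, at an age at which its neurons are still being made. The set was defined by gene name, with earlier results of these data known, as Mir219a-1, Mir219a-2, Mir219b, Mir338 and Mir3065. Of these 5 genes, 3 (Mir219a-1, Mir219a-2 and Mir338) have a row of their own among the 1973 gene rows of the tables. Mir219b and Mir3065 lie on the opposite strand of Mir219a-2 and Mir338, so their reads could be looked for only in the opposite-strand counts of those rows.

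The tissue was midbrain of healthy B6NCrl mouse embryos at day 13.5, pooled from males and females, and no embryo carried a treatment or an engineered allele according to the labels. RNA under 30 nt was sequenced in 2 biological replicates with 1 library each. Both carry the same donor record, and no source used here says how independent the pools were, so the spread between them may be in part technical. With 1 group there is no condition to compare, and all tests below compare the 2 libraries with each other.

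MicroRNAs are cut from hairpin transcripts, and either arm of the hairpin, 5p or 3p, can become the mature strand that guides repression of target mRNAs. The bases from position 2 to position 8, the seed, carry most of the target choice. In the postnatal brain and spinal cord, miR-219 and miR-338 rise as oligodendrocyte precursors leave the cell cycle, and they repress genes that hold the precursors back, such as the receptor Pdgfra and the transcription factors Sox6 and Hes5. Mir338 is hosted by Aatk, a kinase gene of neurons and glia, so its presence alone does not mark oligodendrocytes.

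The mature strands show which loci can be told apart. They are given 5′ to 3′ from RefSeq (GRCm38.p6), with the seed in capitals, and are those listed there for the 5 genes. No 3p strand was listed for Mir219a-2 or Mir3065, so neither is shown or compared.
miR-219a-5p, from Mir219a-1 and Mir219a-2: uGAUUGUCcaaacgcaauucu
miR-219a-1-3p, from Mir219a-1: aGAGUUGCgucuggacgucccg
miR-219b-5p, from Mir219b: aGAUGUCCagccacaauucucg
miR-219b-3p, from Mir219b: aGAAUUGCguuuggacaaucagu
miR-338-5p, from Mir338: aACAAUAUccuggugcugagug
miR-338-3p, from Mir338: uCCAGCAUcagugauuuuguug
miR-3065-5p, from Mir3065: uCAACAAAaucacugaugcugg
No pair of these strands shares a seed, and the seed GAUUGUC of miR-219a-5p and the seed CCAGCAU of miR-338-3p each occur under only 1 mature name in the RefSeq table. miR-3065-5p and miR-338-3p are antisense to each other, with a run of 21 complementary bases. miR-219a-5p and miR-219b-3p are likewise complementary over 21 bases, the whole length of miR-219a-5p.

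The hairpins of Mir219a-1 and Mir219a-2 carry the same 5p arm. They are shown because this shared stretch, in capitals, decides which reads could be counted.
Mir219a-1, mm10 chr17:34024983-34025092, minus strand: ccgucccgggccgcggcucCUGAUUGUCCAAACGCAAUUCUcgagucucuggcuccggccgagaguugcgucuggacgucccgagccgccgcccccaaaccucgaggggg
Mir219a-2, mm10 chr2:29845631-29845727, minus strand: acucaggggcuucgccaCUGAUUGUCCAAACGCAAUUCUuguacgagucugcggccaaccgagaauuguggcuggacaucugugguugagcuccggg
The longest run common to both is 22 bases, made of the 21 bases of miR-219a-5p and 1 base before it, and the sequences part at the first base after it. A read of miR-219a-5p as annotated therefore fits 2 loci and would fall among the multimapping reads, which no locus row includes. Outside this run the hairpins diverge. Over their whole length 72 of 93 aligned bases were identical, which includes the shared run and leaves out gaps. The counts of these 2 rows can hold reads of the 3p arms and 5p reads that reach past the shared run. They are not the level of mature miR-219a-5p, and the tables do not tell the arms apart.

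The Mir338 hairpin has no such copy. Its longest run shared with any other annotated hairpin away from its own locus was 13 bases, and both arms, in capitals, occur in 1 hairpin only.
Mir338, mm10 chr11:120014765-120014862, minus strand: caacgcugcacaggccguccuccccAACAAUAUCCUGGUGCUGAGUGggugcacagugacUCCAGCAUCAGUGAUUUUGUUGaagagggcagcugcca
Its count can therefore hold all reads of both arms, whereas the Mir219a rows can hold 5p reads only where these reach past the shared run, and the levels of Mir338 and the Mir219a loci are not on an equal footing.

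The 3 loci differ in their surroundings. Mir338 lies in an intron of Aatk on the strand of that gene, and Mir3065 lies in the same intron on the other strand. Mir219a-1 overlaps an exon of the long noncoding gene Gm26940 on its own strand over 88 of its 110 bases, 303 bp from Ring1, a Polycomb gene, and 941 bp from H2-Ke6. Mir219a-2 overlaps no annotated gene on its strand, and the nearest protein-coding gene is Urm1 at 629 bp. Mir219b (mm10 chr2:29845647-29845711, plus strand) lies wholly within the bounds of Mir219a-2. Mir3065 (mm10 chr11:120014767-120014853, plus strand) lies wholly within those of Mir338. Another antisense microRNA gene, Mir219c, lies opposite Mir219a-1 and is not one of the 5.

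The libraries held 5093743 same-strand counts in replicate 1 and 2935841 in replicate 2. Multimapping reads were 34.4% and 37.7% of reads, with ambiguous reads left out of the total. The floor used for detection, 3 counts, was equal to 0.589 CPM in replicate 1 and 1.02 CPM in replicate 2, where CPM is the count scaled to the same-strand total of all gene rows. Intervals and floors cover counting error only, since the reads carry no molecular identifiers in the tables. The neural microRNA Mir137 stood at 7831 ± 2028 CPM (SD, n = 2), while every Mir9 and Mir124a row was lower than Mir219a-1. The Mir9 hairpins have stretches of 20 nt or longer in common with other loci. The Mir124a rows had no hairpin sequence under their names and could not be checked for such stretches. The low counts of these rows are therefore not the levels of their mature microRNAs.

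All 3 loci with a row were expressed well above the floor in both libraries, in the order Mir219a-2, Mir219a-1, Mir338. Mir219a-2 had 8026 counts in replicate 1 and 5379 in replicate 2, or 1576 CPM (95% exact Poisson interval 1541 to 1611) and 1832 CPM (1784 to 1882). The intervals did not overlap, with replicate 2 the higher library. Its mean of 1704 ± 181 CPM (SD, n = 2) placed it 73rd of the 1973 rows.

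Mir219a-1 had 3758 and 2122 counts in replicates 1 and 2, or 738 CPM (714 to 762) and 723 CPM (692 to 754). The libraries were nearly level and their intervals overlapped. Its mean was 730.3 ± 10.6 CPM (SD, n = 2), at rank 102.

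Mir338 had 891 and 473 counts, or 175 CPM (164 to 187) in replicate 1 and 161 CPM (147 to 176) in replicate 2. These intervals overlapped too. Its mean was 168 ± 9.76 CPM (SD, n = 2), at rank 181. Each step of the order was larger than the spread between replicates, and the order was the same in both libraries.

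Mir219a-2 stood at 32.1 times, Mir219a-1 at 13.8 times and Mir338 at 3.17 times the median level of the 466 loci with at least 10 counts over both libraries, which was 53.0 CPM. Together the 3 loci held 0.249% of the counts in replicate 1 and 0.272% in replicate 2. In whole tissue, fewer cells of a type and less RNA per cell cannot be told apart, and these counts do not say which midbrain cells made the RNA.

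**Figure D1:**
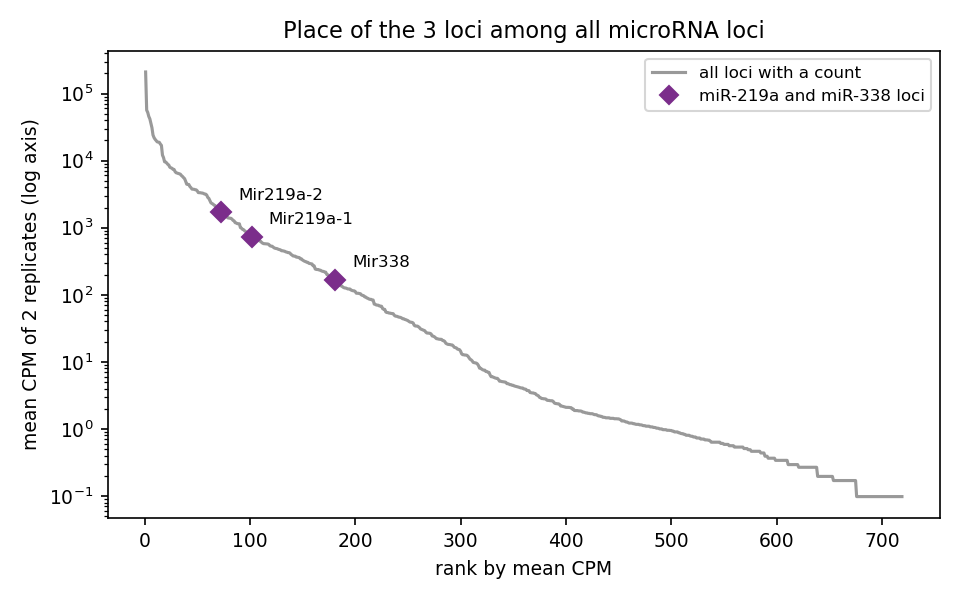
Mean CPM over 2 replicates (y axis, log scale) against rank (x axis) for the 719 loci with a count, with Mir219a-2, Mir219a-1 and Mir338 as diamonds at ranks 73, 102 and 181. The 3 loci lie in the upper part of the curve, between 168 and 1704 CPM.

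The loci closest to each in level, by the larger of the differences in log2(CPM + 0.5) in the 2 libraries, follow for each. For Mir219a-2 they were Mir433 at 1597 ± 123 CPM and Mir467c at 1831 ± 260 CPM (SD, n = 2 for each), both within a log2 difference of 0.14 in either library. Mir467c had no hairpin sequence under its name, so stretches in common with other loci could not be checked. For Mir219a-1 they were Mir186 at 728 ± 7.39 CPM, with a log2 difference of at most 0.03, and Mir302a at 761 ± 45.3 CPM, whose hairpin has 20 nt or more in common with another and whose count is uncertain. For Mir338 they were Mir148a at 173 ± 2.68 CPM and Mir488 at 168 ± 6.86 CPM. None of these 6 pairs differed by more than the sum of its SDs, so the place of the 3 loci among their neighbours is not resolved.

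Of the 3 loci, 1 differed between the libraries beyond counting error. By the two-sided exact conditional binomial test with TMM-scaled library sizes and Benjamini-Hochberg adjustment over all 466 loci, Mir219a-2 was 1.22-fold higher in replicate 2, with a log2 ratio (replicate 1 over replicate 2) of -0.28 and an adjusted p of 1.11e-27. The test called 38.0% of all loci (18.7% with replicate 1 the higher library, 19.3% with replicate 2). The share was 45.6% when at least 20 counts were required, and all 3 loci stood above the median level tested. The 38.0% is therefore not matched in level to these 3 loci or to the lists below, and 1 of 3 was not judged against it. Mir219a-1 (log2 ratio -0.037, adjusted p 0.516) and Mir338 (0.052, adjusted p 0.707) did not pass, which does not show that they were equal. With total counts only in place of TMM scaling, the log2 ratio of Mir219a-1 was 0.030. Of the called loci, 49.2% were higher in replicate 1 after TMM scaling, and 61.9% when library totals alone were used.

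The test takes in no spread between embryos. Among the 205 tested loci that averaged at least 100 CPM, 155 had a smaller difference than Mir219a-2, 34 a smaller one than Mir338 and 24 a smaller one than Mir219a-1. The SD of the log2 ratio over those 205 loci was 0.31, about the size of the difference of Mir219a-2. When a fold of at least 1.5 was required as well, 7.3% of loci were called and none of the 3 was among them. In CPM without TMM scaling, the SD of Mir219a-2 was 10.6% of its mean, that of Mir338 5.81% and that of Mir219a-1 1.45%. The common biological coefficient of variation over all tested loci was 0.157 of the mean. It was taken with TMM scaling and leaves out counting error, so these SDs are not directly comparable with it. The coefficient rests on 1 pair of libraries.

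**Figure D2:**
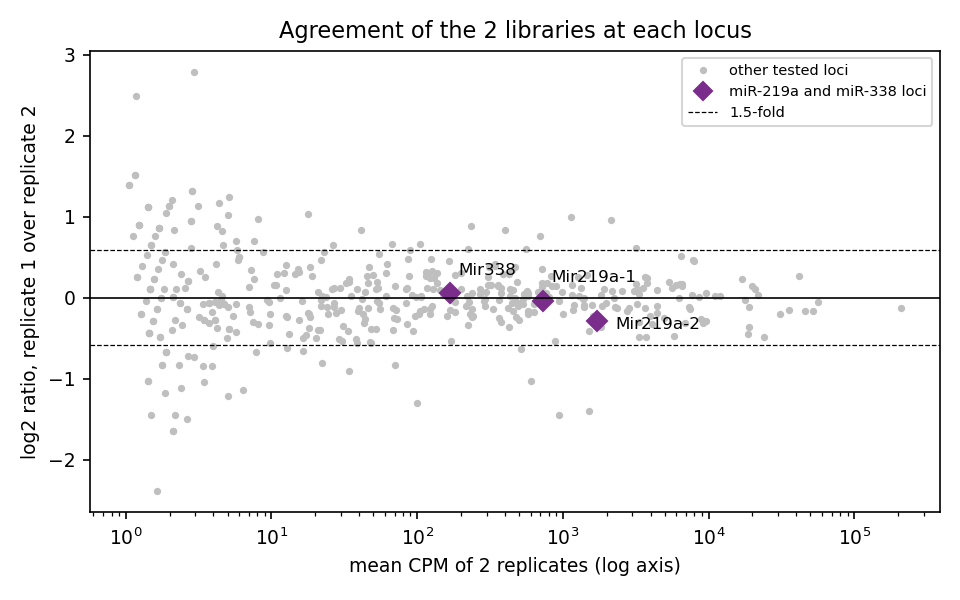
Log2 ratio, replicate 1 over replicate 2 (y axis), against mean CPM (x axis, log scale) for the 466 tested loci, with TMM scaling. Dashed lines mark 1.5-fold, and Mir219a-2 at -0.28, Mir219a-1 at -0.037 and Mir338 at 0.052 (diamonds) lie between them.

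The balance between the Mir219a copies uses the same counts as the test, so its change restates the call of Mir219a-2 and is not a further observation. Mir219a-2 held 2.14 times the counts of Mir219a-1 in replicate 1 (95% exact Clopper-Pearson interval, as a ratio, 2.05 to 2.22) and 2.53 times in replicate 2 (2.41 to 2.67). The intervals did not overlap, and the mean ratio was 2.34 ± 0.282 (SD, n = 2). Mir219a-1 held 4.22 times the counts of Mir338 in replicate 1 (3.92 to 4.54) and 4.49 times in replicate 2 (4.06 to 4.97), with overlapping intervals. This second ratio also depends on the 5p reads that fit both Mir219a copies and are in neither row.

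Other microRNAs with copies that share a mature arm were taken for comparison from the oligodendrocyte, neural and late-maturation lists below. Mir138-1 held 1.70 times the counts of Mir138-2 in replicate 1 (1.59 to 1.81) and 1.75 times in replicate 2 (1.56 to 1.97). Mir128-1 held 1.55 (1.46 to 1.65) and 1.38 (1.28 to 1.49) times the counts of Mir128-2. The Mir219a ratio was above both in each library, with intervals that did not overlap. Mir9-3 and Mir9-2, which share both arms, stood at 2043 against 9 counts in replicate 1 and 1037 against 7 in replicate 2. Mir29b-2 and Mir29b-1 had 6 against 4 counts and 5 against 2, too few to set an order. In all 5 pairs a read that fits both copies is in neither row, so a ratio describes the reads that could be placed and not the output of the loci.

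**Figure D3:**
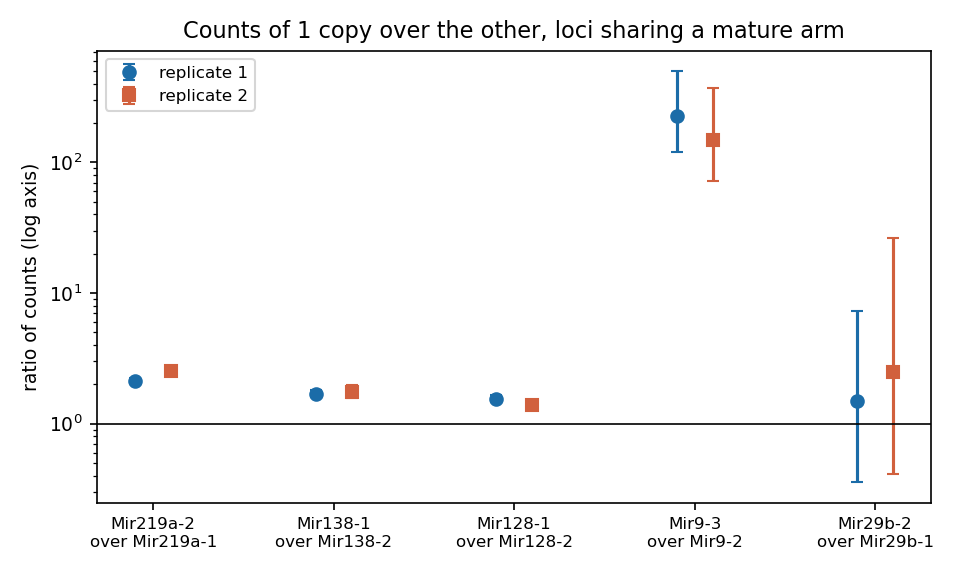
Counts of 1 copy divided by those of the other (y axis, log scale) for 5 pairs of loci that share a mature arm, in replicate 1 (circles) and replicate 2 (squares), with 95% exact intervals for counting error. The miR-219a pair stood at 2.14 and 2.53, above the Mir138 and Mir128 pairs and far below the Mir9 pair.

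Mir219b and Mir3065 were at or near 0. Opposite to Mir219a-2, where Mir219b lies, there was 1 count in replicate 1 beside 8026 on the strand of Mir219a-2. Replicate 2 had 0 of 5379 counts there, which allows a share of up to 0.0558% by the floor of 3 counts and 0.0686% by the 95% exact Clopper-Pearson interval. Mir219b was therefore not detected above the floor at this depth, with 95% exact Poisson upper bounds of 1.09 CPM in replicate 1 and 1.26 CPM in replicate 2.

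Opposite to Mir338, where Mir3065 lies, there were 2 counts in replicate 1 and 1 in replicate 2. These are 0.224% (95% exact Clopper-Pearson interval 0.0271 to 0.807) and 0.211% (0.00534 to 1.17) of the reads at the locus. The upper bounds were 1.42 and 1.90 CPM. Both counts are at or under the floor of 3, so no level is given for Mir3065 and no fold against Mir338.

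Opposite to Mir219a-1, where Mir219c lies, there were 10 counts in replicate 1 and 3 in replicate 2, or 0.265% (0.127 to 0.488) and 0.141% (0.0291 to 0.412) of the reads at that locus. This was the highest opposite-strand count of the 3 loci in each library. The limits hold for reads that map to 1 place. miR-219b-3p shares 22 of its 23 bases with the opposite strand of the Mir219a-1 hairpin, and no source used here says how the aligner treated such near-copies. All of Mir219b and Mir3065 lies within the bounds of the counted rows, so no part of either gene was outside the count.

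Opposite-strand counts were rare among rows at 100 CPM or more on their own strand, and all 3 loci had some. Over all gene rows there were 119097 opposite-strand counts in replicate 1 and 63546 in replicate 2. Some rows below that level held nearly all their reads on the opposite strand, such as Mir299b with 4332 and 2390. Of the 205 rows at 100 CPM or more, 21 had any opposite-strand count over both libraries, and 10 have an annotated microRNA gene on the other strand, of which 7 had a count. The share was 0.221% at Mir219a-1, 0.219% at Mir338 and 0.00746% at Mir219a-2, against a median of 0% over the 205 rows. Over the 3 loci, 0.102% of the reads in replicate 1 and 0.0501% in replicate 2 were on the opposite strand. A handful of reads sets these shares, and whether they come from the opposite genes was not tested.

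**Figure D4:**
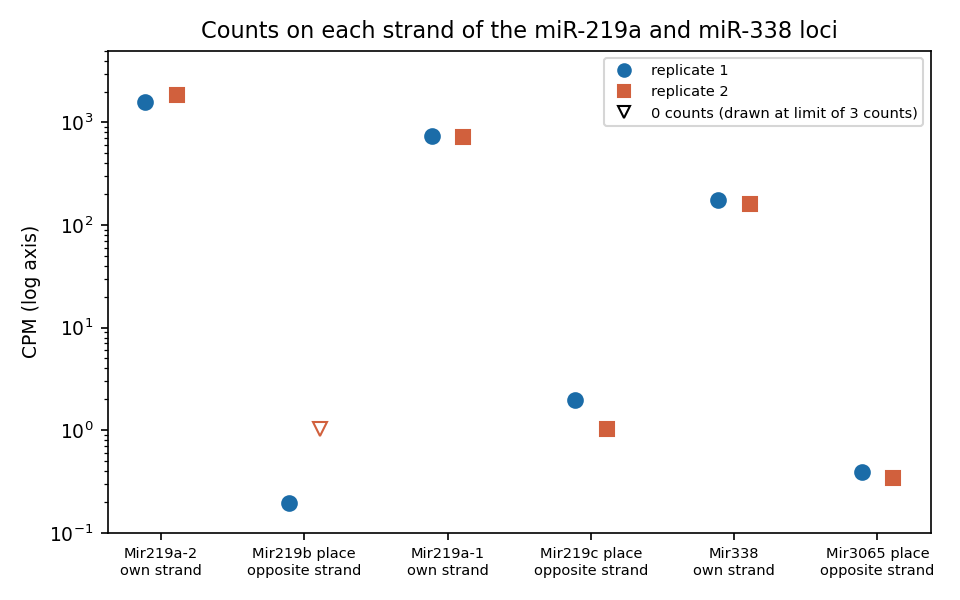
CPM (y axis, log scale) on the own strand of Mir219a-2, Mir219a-1 and Mir338 and on the opposite strand at each, where Mir219b, Mir219c and Mir3065 lie, in replicate 1 (circles) and replicate 2 (squares). The triangle marks 0 counts, drawn at the floor of 3 counts, and the own-strand levels of 161 to 1832 CPM stand far above all opposite-strand values.

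Of 4 other microRNA loci tied to oligodendrocyte differentiation, 1 was above Mir219a-2 and the other 3 were below Mir219a-1. Mir23a, which represses the lamin gene Lmnb1 and promotes oligodendrocyte maturation, stood at 3732 ± 772 CPM. Mir138-1, of the early differentiation phase, stood at 401 ± 172 CPM, Mir32 at 293 ± 4.68 CPM and Mir138-2 at 233 ± 105 CPM (SD, n = 2 for each), with means between those of Mir219a-1 and Mir338. In the test between the libraries, Mir138-1 and Mir138-2 were higher in replicate 1, Mir23a was higher in replicate 2 and Mir32 did not pass. These counts stand beside the 38.0% called over all loci, a share not matched to their level. Their median log2 ratio was 0.37, against -0.0041 over all tested loci and -0.037 for the 3 miR-219a and miR-338 loci. This median describes no common shift. The ratios were 0.84 at Mir138-1 and 0.88 at Mir138-2, which are copies sharing an arm, but -0.49 at Mir23a and -0.099 at Mir32. Mir23a and both Mir138 loci have a stretch of 20 nt or longer in common with another hairpin and are uncertain.

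Of 3 microRNAs known to restrain oligodendrocyte differentiation, Mir125a stood at 3755 ± 564 CPM, more than Mir219a-2. Mir27a at 43.9 ± 2.86 CPM and Mir212 at 35.1 ± 1.46 CPM were both below Mir338 (SD, n = 2 for each). Of the 3, Mir125a was called, higher in replicate 1, again beside 38.0% over all loci. Mir27a has a stretch of 20 nt or longer in common with another hairpin and is uncertain.

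The miR-29 family, which rises late in brain maturation, offers a contrast in level. All 4 of its rows were below Mir338 in mean level. Mir29a stood at 126 ± 2.17 CPM and Mir29c at 114 ± 18.8 CPM, whereas Mir29b-2 at 1.44 ± 0.371 CPM and Mir29b-1 at 0.733 ± 0.0736 CPM (SD, n = 2 for each) were near the floor. The Mir29b loci share an arm, and reads that fit both are in neither count. Mir29c also has a stretch of 20 nt or longer in common with another hairpin and is uncertain. Of the 3 tested rows, Mir29c was called, higher in replicate 1, beside the 38.0% called over all loci.

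Markers of other cells were in the same tissue. Of 9 progenitor and neuron rows, 2 (Mir137 and Mir153, at 3545 ± 331 CPM) were above Mir219a-2. Another 4, Mir9-2 and the Mir124a rows, were below Mir338. Mir9-2 shares stretches with other loci and the Mir124a rows could not be checked for them, so these low counts are uncertain. The list summed to 1.43% of replicate 1 and 1.10% of replicate 2. The endothelial Mir126a stood at 18713 ± 3474 CPM, and the mural Mir143 at 5809 ± 1156 CPM. The 5 blood rows ranged from Mir486 at 12.5 ± 1.06 CPM to Mir223 at 172 ± 39.6 CPM (SD, n = 2 for each). Mir142, also on the blood list, has no row and is in neither this range nor the sum below. The Mir142b row held 1069 and 807 opposite-strand counts in replicates 1 and 2. Whether those are reads of Mir142 was not tested. Mir126a was called higher in replicate 2, as was Mir219a-2, and so were 3 of the 4 tested mural and mesenchymal rows, beside 19.3% of all loci called in that direction. That share is over tested loci of all levels and is not matched to these rows, so no excess is read from it. The mural and mesenchymal list summed to 0.538% of replicate 1 and 0.707% of replicate 2. The blood list summed to 0.0265% and 0.0311%, but of its 5 rows Mir451a was called higher in replicate 1, Mir223 higher in replicate 2 and 3 were not called. Of the 9 progenitor and neuron rows, 3 were called, 2 of them with replicate 1 the higher library. The part of these cells in the difference of Mir219a-2 was not tested.

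**Figure D5:**
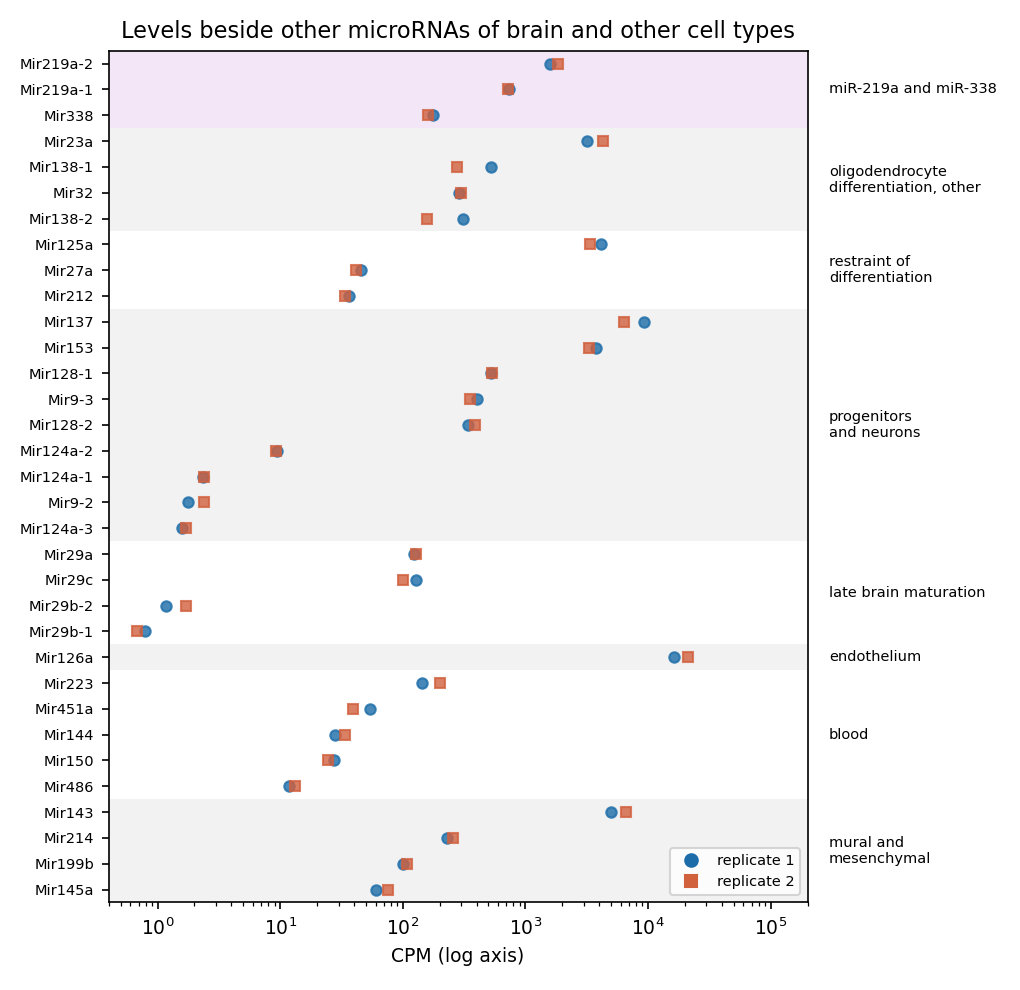
CPM (x axis, log scale) in replicate 1 (circles) and replicate 2 (squares) for the 3 miR-219a and miR-338 loci, at the top, and for 30 rows of 7 lists below. Mir219a-2 and Mir219a-1 stand above all 4 miR-29 rows and all 5 blood rows, and below the leading neuronal, endothelial and mural rows.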

How the data were processed

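MicroRNA-seq of 2 midbrain libraries was analysed. The authors deposited raw read counts per gene, 1 table per library, per the file headers, which name mm10 and annotation M4. The aligner, trimming and filters are not stated in these sources. In 3946 of 3946 rows the first count column is the total of the other columns, and the columns were read from this as unstranded, same-strand and opposite-strand counts. Rows for unmapped (16.1% and 15.7% of reads), multimapping, unassigned (3.79% and 3.80%) and ambiguous reads name no gene and were left out. The total behind these shares does not include ambiguous reads.

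Names and coordinates came from GENCODE M21, also on mm10, in which 1894 of 1973 gene IDs matched and the 3 loci kept their ID version. Sequences came from RefSeq (GRCm38.p6), which lists a hairpin for all 5 genes. CPM used all gene rows. TMM factors and the coefficient of variation came from edgeR 4.0.16 with an intercept only, since 1 group allows no contrast. The library test (scipy 1.17.1) used loci with at least 10 counts, a threshold of 0.05 and a pseudocount of 0.5 CPM for ratios. It was tried on simulated counts that held counting error only. That trial cannot show how the test behaves with further spread between libraries. The alternatives tried were scaling by DESeq2 (1.42.0) or by library total, other filters, the unstranded column, thinning of replicate 1, a required fold, a pseudocount of 1 CPM, other denominators and each replicate left out.

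The 5 genes and the lists of other microRNAs were chosen with earlier results of these data known. Named loci are the 3 rows, the 2 loci nearest to each in level and the leading rows of the lists.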

Additional observations from a re-analysis of the deposited data

How the results depend on the processing

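Mir219a-2 was called higher in replicate 2 under each alternative of scaling, count minimum, strand column, depth and pseudocount, with a log2 ratio from -0.29 to -0.22, and was not called when a fold of at least 1.5 was required. Mir219a-1 and Mir338 passed under none of them, and the log2 ratio of Mir219a-1 changed sign to 0.030 with total counts only. The number of called loci was 177 with TMM scaling, between 158 and 183 under the alternatives without a required fold, and 34 with it. The share of loci called was 38.0% and, with no filter, 24.9% of 719. The share of counts held by the 3 loci was 0.260% ± 0.0161 (SD, n = 2), 0.249% without replicate 2 and 0.272% without replicate 1. It was 0.143% with multimapping reads in the denominator and 0.329% with Mir99a, the most abundant row, left out of it. The opposite-strand share over the 3 loci was 0.0763%, and 0.0501% or 0.102% with either replicate left out. No paired analysis was possible because the series has 1 group. Depth limits the statements on Mir219b and Mir3065, and uncounted multimapping reads those on Mir219a-1 and Mir219a-2.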
